A study of Bos taurus with 6 samples.

Results

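The genes described here are HSF1, the main transcription factor of the heat-shock response, and 9 chaperone genes named after heat-shock proteins. They were chosen by symbol, as HSF1, HSP90AA1, HSP90AB1, HSPA8, HSPA4, HSPH1, HSPB1, HSPD1, HSPE1 and DNAJB1, and each is represented by the most-counted row with that symbol. These are 10 of 28200 rows of the count table, and 10 of 10 passed the filter on low counts that left 13390 genes for testing. The factor and 7 of the chaperones act mainly in the cytosol and nucleus, whereas HSPD1 and HSPE1 encode the chaperonin of the mitochondrial matrix. The name "cytosolic" therefore does not cover that pair.

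Epithelial cells of the bovine mammary gland, where milk is made, were compared after CRISPR/Cas9 disruption of KLF6 (KLF6-KO, 3 libraries) and as wild type (WT, 3 libraries). Both groups are primary cells of Holstein cattle, with no further treatment given in the labels. KLF6 is one of the Kruppel-like factors, which bind DNA through zinc fingers. Whether the 3 libraries of a genotype are separate cultures, and whether the edited cells are 1 clone, is not stated, so p-values measure only how far these libraries spread, and that spread may be technical.

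Heat-shock proteins are molecular chaperones, which bind unfolded or newly made proteins and help them to fold. HSP70 proteins take up client proteins with the help of J-domain cochaperones and let go of them through release factors, and HSP90 proteins mature a narrower set of clients such as kinases and steroid receptors. In unstressed cells HSF1 is held inactive by chaperones. On heat or other protein damage it forms trimers and switches on chaperone genes, a response well known from the mammary cells of heat-stressed dairy cows.

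Total counts lay between 17512892 and 18724879 per library. KLF6 stood at 224, 230 and 217 CPM in KLF6-KO libraries, against 502.5, 495.9 and 557.8 CPM in WT libraries, where CPM is counts per 1e+06 of the TMM-scaled library. Its log2 fold change, always given as KLF6-KO over WT, was -1.21 ± 0.05 (SE; edgeR adjusted p = 2.25e-13). WT replicate 3 differed from the other WT replicates by 9.13 and 9.20 times the variance of counting, against 2.28 to 2.81 times for every other pair of 1 genotype. The epithelial genes EPCAM and CDH1 were read at 167 and 290 CPM in KLF6-KO and at 165 and 306 CPM in WT. These 2 genes do not stand for the epithelial list as a whole. Over 9 epithelial markers the summed level was 6502 to 6703 CPM in KLF6-KO and 15993 to 17279 CPM in WT (1 higher and 6 lower of 9 tested). Their median log2 fold change was -1.21, with a range from -2.89 to 0.76. For 9 fibroblast markers the summed level was 246 to 259 CPM in KLF6-KO and 1055 to 1251 CPM in WT, most of it DCN (1 higher and 4 lower of 7 tested). Log2 fold changes of the tested fibroblast markers ran from -2.31 to 9.55. The 8 leukocyte markers summed to 18.9 to 21.4 CPM in KLF6-KO and 10.1 to 11.4 CPM in WT, with PTPRC and LYZ at 0 in every library (2 higher and 0 lower of 3 tested). The 5 endothelial markers summed to 30.8 to 32.6 CPM in KLF6-KO and 4.50 to 5.79 CPM in WT, with KDR at 0 throughout (1 higher and 2 lower of 3 tested). Most of that sum was PECAM1, at 31.3 CPM in KLF6-KO and 0.219 CPM in WT, while VWF and TEK were the 2 that fell. The 4 adipocyte markers summed to 6.08 to 8.58 CPM in KLF6-KO and 2.77 to 3.61 CPM in WT, with ADIPOQ at 0 throughout (1 higher and 0 lower of 2 tested). The part of these markers in the chaperone results was not tested, and in bulk RNA fewer cells of a type and less RNA per cell cannot be told apart.

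In KLF6-KO libraries 7 of the 10 genes rose and 2 fell, by changes that were all under 2-fold. HSP90AB1, HSP90AA1 and HSPA8, the most abundant of the 10 in reads, rose 1.64-, 1.52- and 1.41-fold. HSF1 and HSPB1 fell 1.89- and 1.92-fold. HSPH1, HSPE1, HSPA4 and DNAJB1 rose by smaller amounts, between 1.14- and 1.31-fold, and HSPD1 did not pass the test.

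These counts stand against a background in which 74.6% of all tested genes were called by edgeR (quasi-likelihood test, Benjamini-Hochberg adjusted p up to 0.05). Over all genes, 37.1% were higher and 37.6% lower in KLF6-KO. For 7 of the 10 genes every KLF6-KO library lay above every WT library, which held for 37.9% of all tested genes. For 2 of the 10 every KLF6-KO library lay below, which held for 38.3%, and the libraries were separate in either direction for 76.2% of all tested genes. The median log2 fold change of the 10 genes was 0.31, against -0.01 over all genes. Their median absolute change was 0.44 on the log2 scale, against 0.50 over all genes. None of the 10 changed by 2-fold or more, whereas 22.3% of all tested genes were called with such a change.

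**Figure D1:**
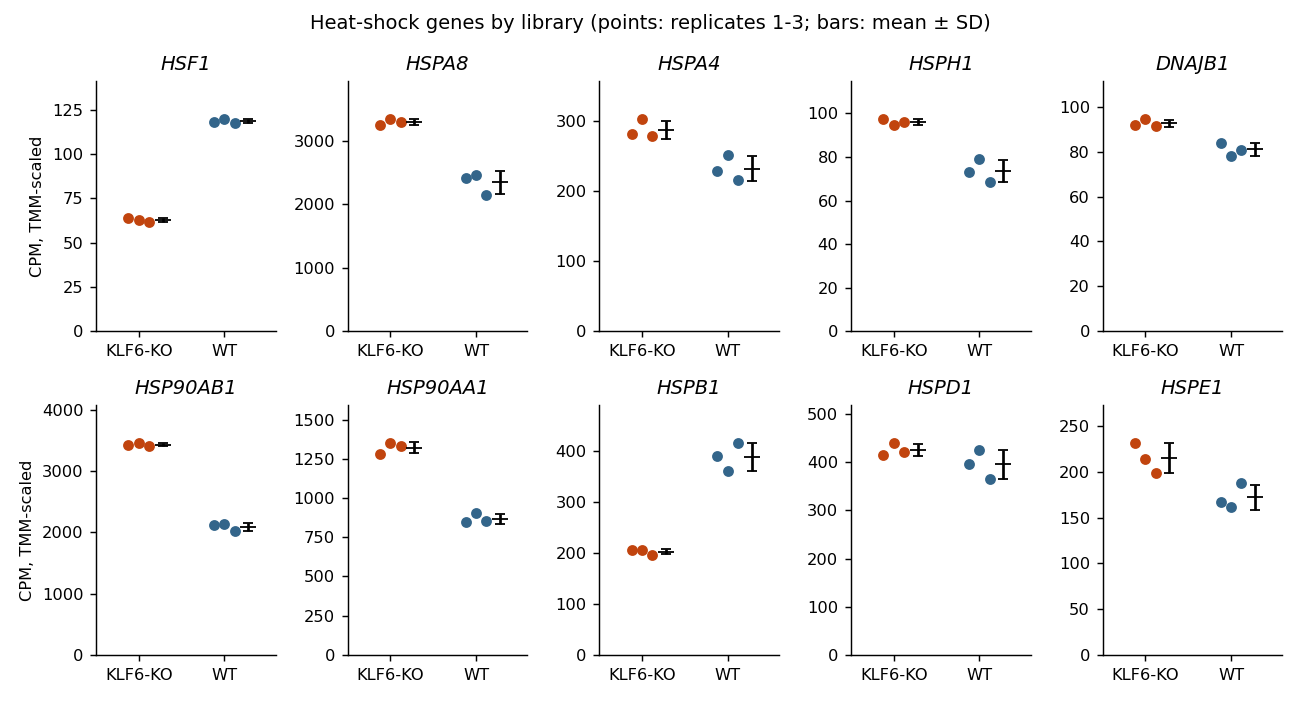
Level of each of the 10 genes in CPM (vertical axes, from 0) in 3 KLF6-KO and 3 WT libraries, with the mean ± SD as bars. HSPD1 is the 1 gene whose libraries overlap between genotypes, and HSF1 and HSPB1 are the 2 that lie lower in KLF6-KO.

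HSF1 (ENSBTAG00000020751, chromosome 14, 613328 to 634349, minus strand; the build of all coordinates is not given) was at 64.2, 62.6 and 61.9 CPM in KLF6-KO libraries, against 118.2, 119.8 and 117.6 CPM in WT libraries. The libraries of each genotype lay close together and far from the other genotype, with 62.9 ± 1.15 CPM in KLF6-KO and 118.5 ± 1.13 CPM in WT (SD, n = 3 each). The log2 fold change was -0.91 ± 0.05 (SE; edgeR adjusted p = 7.63e-12). HSF1 lies on the chromosome whose tested genes had the lowest median of 30 chromosomes. That median was -0.82 over 301 genes, with 23 called higher and 241 called lower in KLF6-KO. With each chromosome's median taken out, the change of HSF1 was -0.09 ± 0.05 (SE, 95% interval -0.20 to 0.01) and no longer passed the test (edgeR adjusted p = 0.0924).

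HSF1 was not at the edge of its chromosome's distribution, since 134 of the 301 genes (44.5%) had a lower fold change. Of 50 other tested genes within 500 kb of it, 0 were higher and 47 lower in KLF6-KO, with a median log2 fold change of -0.997. Its neighbours on both sides fell as well. DGAT1, which makes the last step of triglyceride synthesis, had a log2 fold change of -1.40 ± 0.07 (SE), and BOP1, a ribosome assembly factor, one of -0.64 ± 0.06. The shift of chromosome 14 and the genotype cannot be told apart in this design.

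**Figure D2:**
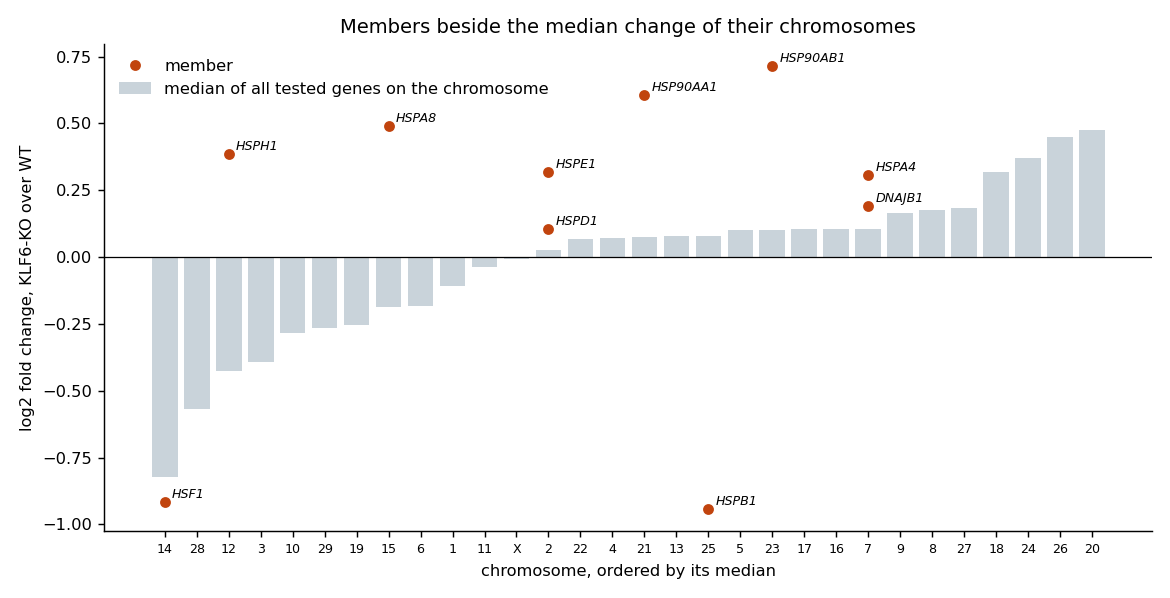
Log2 fold change of KLF6-KO over WT for the 10 genes (points) beside the median of all tested genes on each of 30 chromosomes (bars, ordered by that median). HSF1 at -0.91 sits beside the bar of chromosome 14 at -0.82, while HSPH1 lies above a chromosome 12 median of -0.43 and HSPB1 below a chromosome 25 median of 0.08.

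The 4 genes of the HSP70 machine in this set were all called higher in KLF6-KO, as were 37.1% of all tested genes. HSPA1A, an HSP70 gene outside this set, fell, as given further below. HSPA8 encodes HSC70, the constitutive cytosolic HSP70. It was at 3238, 3337 and 3299 CPM in KLF6-KO libraries, against 2415, 2464 and 2142 CPM in WT libraries. All KLF6-KO libraries lay above all WT libraries, and WT replicate 3 was the lowest of the 6. The log2 fold change was 0.49 ± 0.05 (SE; edgeR adjusted p = 3.49e-08). HSPA8 lies on chromosome 15 (33679009 to 33683436), where the median over tested genes was -0.19. Of 4 other tested genes within 500 kb of it, 3 were higher and 1 lower, with a median log2 fold change of 0.97.

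DNAJB1 encodes the J-domain protein that stimulates the ATPase of HSP70 and hands it clients. Its levels were 92.0, 94.5 and 91.3 CPM in KLF6-KO libraries, against 84.0, 78.3 and 81.0 CPM in WT libraries. The groups did not overlap, but the log2 fold change of 0.19 ± 0.05 (SE; edgeR adjusted p = 0.00231) was the smallest among the 9 called genes. DNAJB1 lies on chromosome 7 (11269404 to 11273083), whose median was 0.11. With chromosome medians taken out its change was 0.09 ± 0.05 and did not pass the test (edgeR adjusted p = 0.134).

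HSPA4 and HSPH1 encode HSP110-type proteins, which release nucleotide from HSP70 so that it can let go of its client. HSPA4 was at 282, 303 and 278 CPM in KLF6-KO libraries, against 229, 252 and 216 CPM in WT libraries. HSPH1 was at 97.3, 94.8 and 96.2 CPM in KLF6-KO libraries, against 73.0, 79.0 and 68.6 CPM in WT libraries. For both genes every KLF6-KO library was above every WT library, and WT replicate 3 was the lowest. The log2 fold change was 0.31 ± 0.05 for HSPA4 (edgeR adjusted p = 6.15e-05) and 0.39 ± 0.06 for HSPH1 (edgeR adjusted p = 5.97e-06). HSPA4 shares chromosome 7 with DNAJB1, and relative to that chromosome's median its change was 0.20 ± 0.05 (edgeR adjusted p = 0.00294). HSPH1 rose while its chromosome 12 had a median of -0.43 over 230 tested genes. Relative to that median its change was 0.81 ± 0.06 (edgeR adjusted p = 3.49e-10). Of 3 other tested genes within 500 kb of HSPH1, 1 was higher and 1 lower, with a median log2 fold change of 0.37.

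Both cytosolic HSP90 genes rose by similar amounts. HSP90AB1 encodes HSP90 beta, the more constitutive form. It stood at 3425, 3457 and 3401 CPM in KLF6-KO libraries, against 2123, 2129 and 2017 CPM in WT libraries. HSP90AA1 encodes HSP90 alpha, the form more inducible by stress. It stood at 1281, 1352 and 1334 CPM in KLF6-KO libraries, against 846, 903 and 854 CPM in WT libraries. For each gene the genotypes were separate, and the distance between them was much larger than the spread within either. The log2 fold change was 0.71 ± 0.04 for HSP90AB1 (edgeR adjusted p = 1.11e-11), the highest among the 10 genes, and 0.61 ± 0.04 for HSP90AA1 (edgeR adjusted p = 3.66e-10). They lie on chromosomes 23 and 21, with medians of 0.10 and 0.08. Of 12 other tested genes within 500 kb of HSP90AB1, 9 were higher and 1 lower (median log2 fold change 0.34). Of 11 within 500 kb of HSP90AA1, 3 were higher and 3 lower (median -0.01).

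The balance between the HSP90 genes was compared within each library, since a ratio does not depend on scaling. Per kilobase of gene length, HSP90AA1 was read at 0.160, 0.167 and 0.168 times HSP90AB1 in KLF6-KO libraries, against 0.170, 0.181 and 0.181 times in WT libraries. The ratios did not overlap between genotypes, and the log2 ratio was lower by 0.11 in KLF6-KO (difference -0.11). The exact two-sided permutation test gave p = 0.1, which is the smallest that 3 against 3 libraries allow.

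HSPB1 encodes HSP27, a small heat-shock protein that holds unfolding proteins without using ATP and also binds actin filaments. It was at 206, 205 and 196 CPM in KLF6-KO libraries, against 389, 362 and 416 CPM in WT libraries. No KLF6-KO library came near the WT range, and the spread was wider in WT (202.7 ± 5.36 CPM in KLF6-KO and 389 ± 27.2 CPM in WT, SD, n = 3 each). The log2 fold change was -0.94 ± 0.05 (SE; edgeR adjusted p = 1.11e-11). HSPB1 lies on chromosome 25 (34345339 to 34347009), whose median was 0.08, and relative to that median its change was -1.02 ± 0.05. Of 18 other tested genes within 500 kb of HSPB1, 9 were higher and 7 lower, with a median log2 fold change of 0.24. An unnamed locus on the other strand covers the same span, with a mean of 1.67 reads per library.

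HSPD1 encodes HSP60, the barrel of the mitochondrial chaperonin, and HSPE1 encodes HSP10, its lid. HSPD1 was at 415, 440 and 421.5 CPM in KLF6-KO libraries, against 396, 426 and 365 CPM in WT libraries. The ranges overlapped, with WT replicate 2 above KLF6-KO replicates 1 and 3. Its log2 fold change was 0.11 ± 0.05 (SE, 95% interval -0.00475 to 0.22; edgeR adjusted p = 0.0772). HSPD1 passed the test under some settings, for example without WT replicate 2 (0.16, adjusted p = 0.0107), and the adjusted p of its own row lay between 0.0107 and 0.336 over all settings. Without WT replicate 3 its change was 0.05.

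HSPE1 was at 232, 214 and 199 CPM in KLF6-KO libraries, against 167, 162 and 188 CPM in WT libraries. Every KLF6-KO library was above every WT library, though the lowest KLF6-KO library and WT replicate 3 lay close together. The log2 fold change was 0.32 ± 0.06 (SE; edgeR adjusted p = 0.000222). The 2 genes lie head to head on chromosome 2 (HSPD1 86035475 to 86045870 on the minus strand, HSPE1 86044912 to 86048062 on the plus strand), and their annotated spans overlap by 959 bases. The strand setting of the counting is not stated, so reads in the shared stretch cannot be assigned with certainty.

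The lid-to-barrel ratio, HSPE1 over HSPD1 per kilobase, was 1.64, 1.43 and 1.39 in KLF6-KO libraries, against 1.24, 1.11 and 1.51 in WT libraries. These values overlapped, and the difference in log2 ratio, 0.21, was within the spread (exact two-sided permutation p = 0.3). The overlap rested on WT replicate 3. Without that library the difference was 0.33 (exact two-sided permutation p = 0.1, the smallest that 3 against 2 libraries allow). The difference was 0.11 without WT replicate 2 and 0.14 without KLF6-KO replicate 1. A further row with the symbol HSPD1 lies on chromosome 22 (ENSBTAG00000047441, 13635727 to 13637448), and its length of 1722 bases equals its span. It was read at 67.2 ± 4.19 CPM in KLF6-KO and 64.1 ± 2.20 CPM in WT (SD, n = 3 each), with a log2 fold change of 0.07 ± 0.06 that did not pass the test (edgeR adjusted p = 0.301). Reads of near-identical copies may be split between these rows.

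**Figure D3:**
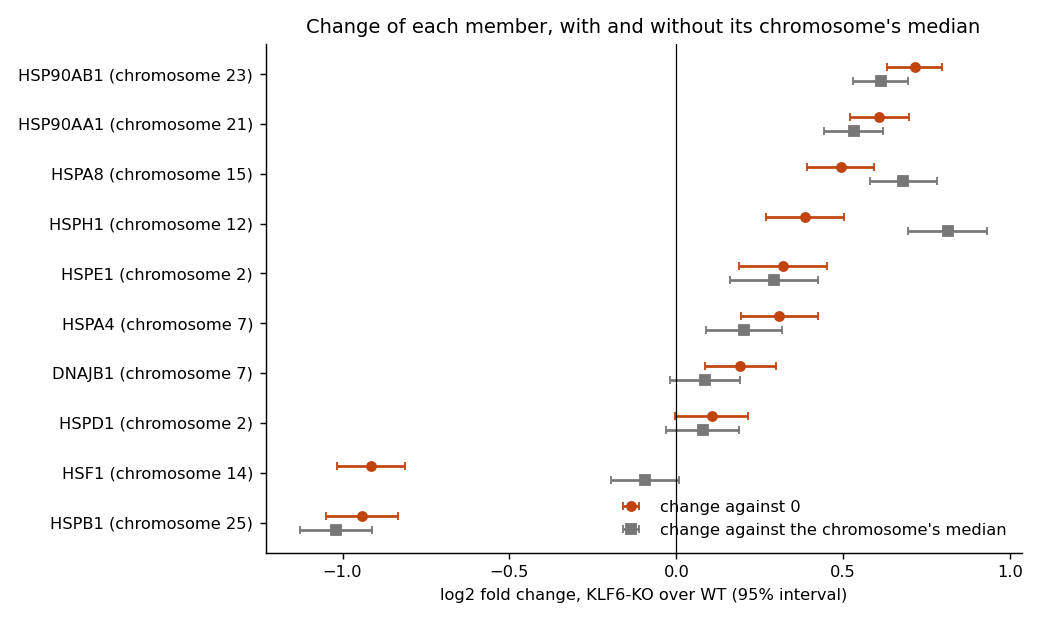
Log2 fold change of KLF6-KO over WT with 95% intervals for the 10 genes, as fitted (circles) and with the median of the gene's chromosome taken out (squares). HSF1 stands at -0.91 as fitted and at -0.09 with the median taken out, HSPH1 at 0.39 and 0.81, while the HSP90 genes, HSPA8 and HSPB1 keep their directions with intervals that stay off 0.

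Levels of different genes were compared per kilobase of the gene length given in the count table. In KLF6-KO libraries the order was HSPA8 (1421 ± 21.4 CPM per kilobase), HSP90AB1 (1328 ± 10.8), HSPB1 (237 ± 6.27), HSPE1 (226 ± 17.2), HSP90AA1 (219 ± 6.08), HSPD1 (152 ± 4.67), HSPA4 (59.4 ± 2.74), DNAJB1 (41.4 ± 0.76), HSPH1 (26.7 ± 0.35) and HSF1 (18.4 ± 0.34), each as a mean ± SD over 3 libraries. The libraries of HSPB1, HSPE1 and HSP90AA1 overlapped from one neighbour to the next, and all other neighbours were separate. In WT libraries HSPA8 (1010 ± 75.0 CPM per kilobase) and HSP90AB1 (810 ± 24.3) also led, and HSPB1 came next at 455 ± 31.9, apart from its neighbours. HSP90AA1 and HSPD1 overlapped in WT, as did DNAJB1 and HSF1, and HSPH1 was lowest at 20.4 ± 1.45.

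Summed in CPM, the 10 genes gave 9333, 9560 and 9379 in KLF6-KO libraries, against 6841, 6974 and 6465 in WT libraries. HSP90AB1, HSPA8 and HSP90AA1 made up 7945, 8145 and 8034 CPM of this in KLF6-KO libraries, against 5384, 5496 and 5013 CPM in WT libraries. The other 7 genes together were slightly lower in KLF6-KO, at 1388, 1415 and 1345 CPM, against 1457, 1478 and 1452 CPM in WT. Thus the higher sum lay in the 3 abundant genes.

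**Figure D4:**
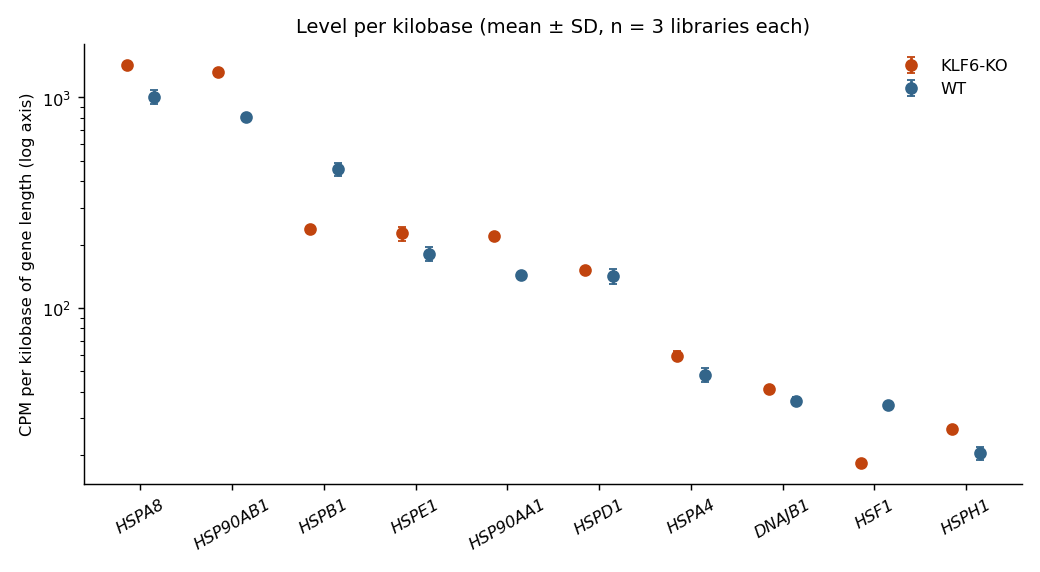
Level per kilobase of gene length (log axis, CPM per kilobase, mean ± SD over 3 libraries) in KLF6-KO and WT, ordered by the WT level. HSPA8 and HSP90AB1 stand above the other 8 genes in both genotypes, and HSPB1 and HSF1 are the 2 whose KLF6-KO point lies below the WT point.

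The authors' deposited table lists 9 of the 10 genes. In the authors' deposited table the log2 fold change is 0.73 for HSP90AB1, 0.62 for HSP90AA1, 0.51 for HSPA8, -0.93 for HSPB1 and -0.90 for HSF1. HSPD1 is not among the genes that the authors' deposited table holds.

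Other chaperone genes were taken from 9 lists by family and role. Of 102 listed genes, 99 had a row under that symbol and 94 were tested, of which 56 rose, 22 fell and 16 did not pass the test in KLF6-KO. The same test called 37.1% of all tested genes higher and 37.6% lower, 74.6% in all, with a median log2 fold change of -0.01, and the counts and medians of each list stand against these values. The lists differed in direction, from the small heat-shock proteins, where 0 of 5 tested genes rose, to the chaperonin TRiC and the other heat-shock factors, where no tested gene fell.

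HSPA1A, the classic stress-inducible HSP70, fell 3.27-fold, which is further than any of the 10 genes above. It was at 277, 259 and 249 CPM in KLF6-KO libraries, against 815, 778 and 969 CPM in WT libraries. Its log2 fold change was -1.71 ± 0.08 (SE; edgeR adjusted p = 1.08e-09), on the same chromosome 23 as HSP90AB1, which rose. A near-identical copy known in mammals, HSPA1B, has no row under that symbol, so the counting of shared reads is uncertain. Of 9 tested genes in this HSP70 list, 3 rose and 4 fell, with a median of -0.17. HSPA13 (0.71 ± 0.08), an HSP70 relative of microsomes, and HSPA4L (0.44 ± 0.13), of the HSP110 type, rose, while HSPA12B fell (-0.65 ± 0.12).

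Small heat-shock protein genes other than HSPB1 had 4 that fell and 0 that rose among 5 tested, with a median log2 fold change of -1.89. HSPB6 (HSP20), best known from muscle, was at 2.30, 3.70 and 2.29 CPM in KLF6-KO libraries, against 14.2, 12.5 and 11.9 CPM in WT libraries, with a log2 fold change of -2.21 ± 0.17 (SE; edgeR adjusted p = 9.29e-10). CRYAB, alpha-B crystallin, was at 2.98, 2.28 and 3.18 CPM in KLF6-KO libraries, against 11.6, 11.3 and 8.41 CPM in WT libraries (-1.89 ± 0.17). HSPB8, which works with BAG3 in autophagy of damaged proteins, was the most abundant of these and stood at 29.7 ± 2.64 CPM in KLF6-KO and 93.4 ± 2.75 CPM in WT (SD, n = 3 each; log2 fold change -1.65 ± 0.07). BAG3 itself fell too (-0.55 ± 0.06), although its chromosome 26 had a median of 0.45. HSPB2 fell at a low level (0.22 ± 0.06 CPM in KLF6-KO and 1.46 ± 0.24 CPM in WT), and HSPB11, an intraflagellar transport protein despite its name, did not pass the test (0.03 ± 0.15). With chromosome medians taken out, 1 of these 5 genes was called higher and 4 lower. CRYAA, HSPB3 and HSPB9 had 0 counts in all libraries and HSPB7 was too low to be tested.

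**Figure D5:**
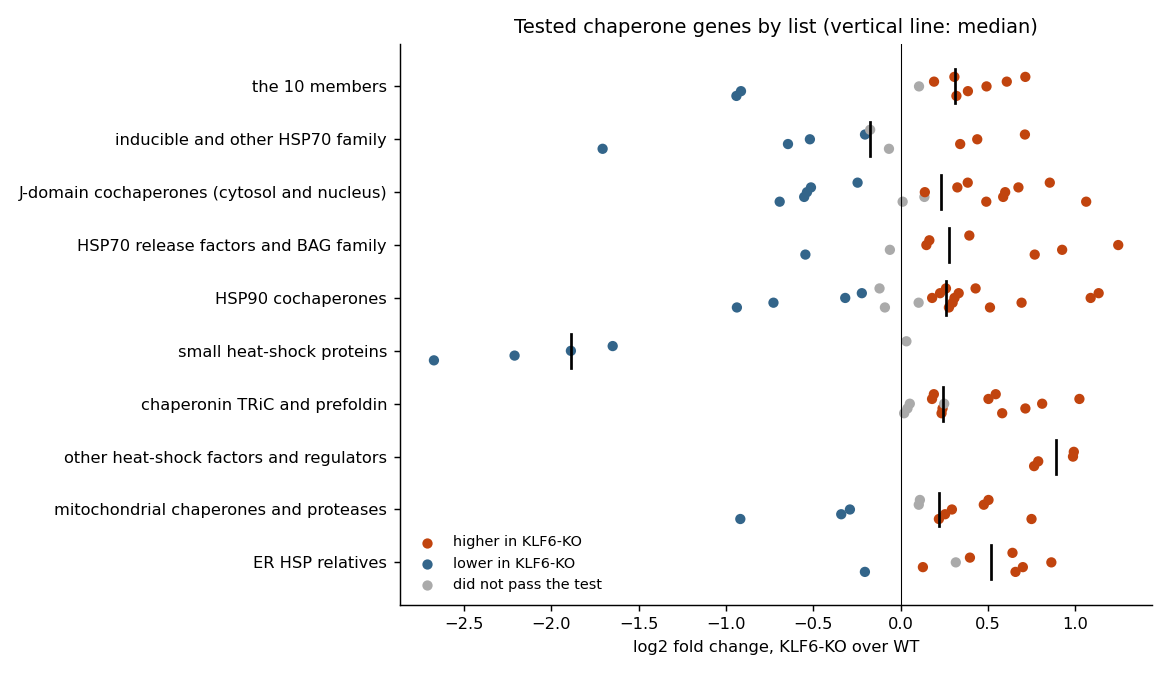
Log2 fold change of KLF6-KO over WT of each tested gene in the set of 10 and in 9 other chaperone lists, with the median as a vertical line. Small heat-shock proteins lie on the lower side (median -1.89), while the chaperonin TRiC with prefoldin holds no gene that fell.

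The other heat-shock factors and regulators had 4 that rose among 4 tested, and 3 that were called higher with chromosome medians taken out. HSF2, a second heat-shock factor that can pair with HSF1, was at 17.2, 18.3 and 21.7 CPM in KLF6-KO libraries, against 11.1, 9.75 and 7.98 CPM in WT libraries. The groups did not overlap, and the log2 fold change of 0.99 ± 0.12 (SE; edgeR adjusted p = 8.61e-07) was opposite in sign to that of HSF1. HSF1 itself stood at -0.09 with chromosome medians taken out and did not pass the test. HSF2BP, a partner of HSF2 known from meiosis, rose as well (0.99 ± 0.13). HSBP1, which binds the trimerization domain of HSF1 and damps it, was at 123 ± 5.29 CPM in KLF6-KO and 71.4 ± 1.53 CPM in WT (SD, n = 3 each; log2 fold change 0.79 ± 0.05). HSF4, a factor best known from the lens of the eye, was lower in level and also rose (0.76 ± 0.22). With chromosome medians taken out HSF2 stood at 0.83 and HSF2BP at 1.10, and both still passed the test. Of these 4 genes, the call lost in that fit was therefore that of HSF4. No chromosome had a median above 0.48, against 0.79 ± 0.05 for HSBP1.

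Among cochaperones of HSP90, 12 rose and 4 fell of 19 tested, with a median of 0.26. NUDC, a cochaperone first known from nuclear migration, rose 2.20-fold (1.13 ± 0.05) and PPP5C, a phosphatase bound to HSP90, 2.13-fold (1.09 ± 0.06). TSC1, known mainly as a brake on mTOR, fell (-0.73 ± 0.07). With chromosome medians taken out, NUDC stood at 1.11, PPP5C at 0.77 and TSC1 at -0.69. STIP1, which links HSP70 to HSP90, rose by less (0.26 ± 0.06).

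J-domain cochaperones had 9 that rose and 5 that fell of 16 tested, with a median of 0.23. DNAJC21, a factor of ribosome maturation (1.06 ± 0.06), and DNAJA2, a main HSP70 partner (0.85 ± 0.05), rose, and DNAJB12 (-0.69 ± 0.08) and DNAJB4 (-0.55 ± 0.07) fell. With chromosome medians taken out, DNAJB12 no longer passed the test (-0.12) and DNAJB4 stood at -0.16, DNAJC21 at 0.59 and DNAJA2 at 0.54. Release factors and BAG proteins of HSP70 had 6 that rose and 1 that fell of 8 tested, with a median of 0.28. BAG2 (1.25 ± 0.07), an inhibitor of the ubiquitin ligase STUB1, and HSPBP1 (0.93 ± 0.06), a nucleotide release factor, rose. Relative to the chromosome median HSPBP1 stood at 0.61 and BAG3 at -0.996.

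The chaperonin TRiC, which folds actin and tubulin, had 6 of 8 subunit genes that rose and 0 that fell, and its partner prefoldin had 4 of 6 that rose and 0 that fell. CCT5 was at 525, 524 and 544 CPM in KLF6-KO libraries, against 306, 309 and 293 CPM in WT libraries (0.81 ± 0.04, and 0.33 relative to the median of chromosome 20). VBP1, a prefoldin subunit, rose 2.03-fold (1.02 ± 0.08). CCT3 (0.04 ± 0.04) and CCT4 (0.02 ± 0.05) did not pass the test. For the mitochondrial chaperones and proteases other than HSPD1 and HSPE1, 6 rose and 3 fell of 11 tested. GRPEL1 (0.75 ± 0.05, its span overlaps TADA2B by 3683 bases) and TRAP1, the mitochondrial HSP90 (0.50 ± 0.06), were among those that rose. CLPX (-0.92 ± 0.06) and GRPEL2 (-0.34 ± 0.09) were among those that fell. Relative to the chromosome median GRPEL1 stood at 0.93, TRAP1 at 0.42, CLPX at -0.63 and GRPEL2 at -0.45. Heat-shock relatives of the endoplasmic reticulum had 6 that rose and 1 that fell of 8 tested, with HYOU1 (0.86 ± 0.04) and DNAJB9 (0.70 ± 0.08) higher. DNAJC3 was the 1 that fell (-0.20 ± 0.06), but the call was lost without KLF6-KO replicate 1 (-0.13, edgeR adjusted p = 0.0782), and relative to the median of chromosome 12 its change was 0.22.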

How the data were processed

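RNA of 3 KLF6 knockout and 3 wild-type libraries was analysed from the count table that the authors deposited, which holds raw counts per gene. The tools named in the submitters' processing notes are HISAT2 2.0.5 and featureCounts 1.5.0-p3. Genome build, annotation and strand setting were not given in the sources used here. Library preparation used an Ion Total RNA-Seq kit, per the labels' protocols. Gene length is another value of the deposited table and served for levels per kilobase. The authors deposited a comparison table with log2 fold changes and adjusted p-values, cited where used.

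Counts were fitted with edgeR 4.0.16 (R 4.3.3) over all 6 libraries, with TMM scaling, filterByExpr (minimum count 10, minimum total 15), robust dispersions and the quasi-likelihood test, with p-values of 13390 genes adjusted by Benjamini-Hochberg and called at 0.05. Each SE comes from the F statistic (absolute log2 fold change divided by its square root). Ratios within libraries were compared by exact permutation. Alternatives used limma 3.58.1 and DESeq2 1.42.0. The fits were also run on simulated counts with few changed genes and no shifted chromosomes. Such counts cannot show how scaling or error rates behave in data where most genes were called. Intervals cover only the spread between libraries.

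The 10 genes and the 9 related lists were chosen with earlier results of these data known. From each list, up to 2 genes per direction with the largest called change and a mean of at least 5 CPM were named; 1 gene that this rule names is not reported here. HSPB8, HSPB2, HSPB11, HSBP1, HSF4, STIP1, CCT3, CCT4, DGAT1 and BOP1 were named after their values were seen.

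Replicate numbers are shared between genotypes, but samples of the same number did not deviate together, so they were not treated as pairs. No sequences are shown, since no genome or sequence table was used here.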

Additional observations from a re-analysis of the deposited data

How the results depend on the processing

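Of the 10 genes, 7 were higher and 2 lower in KLF6-KO also when scaled by library size only, with at least 1 CPM in 3 libraries, and by DESeq2 and limma-voom; RLE scaling and no filter on low counts gave 8 and 2. After subtracting the median of each chromosome, 6 were higher and 1 lower, since HSF1 (-0.09; adjusted p from 1.53e-58 to 0.0924 over all settings) and DNAJB1 (0.09; adjusted p from 0.000891 to 0.134) no longer passed the test. That fit turned DNAJC3 to 0.22 and gave 1 small heat-shock protein gene higher (0 in the reported fit). Leaving out any 1 library gave 7 to 8 higher and 2 lower. HSPD1 passed the test with RLE scaling (adjusted p = 0.0491), with no filter on low counts (0.0422), without WT replicate 2 (0.0107) and, in an alternative chosen after seeing the data, when summed with HSPE1 (0.00136), but not with its 2 rows summed, nor by DESeq2 (0.0632). Without WT replicate 3 its change was 0.05. With the replicate number as a block, 4938 genes were higher and 4956 lower, against 4963 and 5028 without it, and the block changed no call among the 10 genes. The correlation of deviations between same-numbered libraries lay between -0.04 and 0.07, and not every library correlated best with its own number. No scaling moved the median of all genes by over 0.1 on the log2 scale. Total counts of 17512892 or more per library limit the low small heat-shock proteins, with HSPB2 at 3 to 5 counts in a KLF6-KO library, more than the 10 genes.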
